A study of Mus musculus with 6 samples.

Results

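Cell cycle and DNA replication genes were examined in forebrain RNA of 6 mice aged 9 postnatal days, as 40 genes chosen by name from 35275 gene identifiers in the table: 24 genes of mitosis and of the passage into it, and 16 genes of the G1/S transition and S phase. All 40 were found in the annotation, and all 40 passed the filter on low counts. The 3 cKO mice carried the genotype Pdgfra-CreER:Parp1fl/fl, with a floxed Parp1 gene and a tamoxifen-inducible recombinase driven by Pdgfra. Their 3 control littermates carried Parp1fl/fl without the recombinase. Every mouse was C57BL/6 by the labels and received tamoxifen by intraperitoneal injection on postnatal days 1, 2 and 3, so the controls shared the floxed alleles and the drug. Pdgfra marks oligodendrocyte precursors in the forebrain, and fibroblasts of its vessels and meninges also express it. The controls carried no recombinase, so an effect of CreER itself and of losing Parp1 cannot be told apart. The study asked how loss of Parp1, the main poly(ADP-ribose) polymerase, affects oligodendroglial differentiation and myelination.

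A cell entering the cycle first loads the MCM helicase onto replication origins and makes nucleotides and replication proteins, under the control of E2F transcription factors and cyclin E. It later builds a spindle, attaches chromosomes to it and divides, with a programme of mitotic genes switched on by the MuvB, B-Myb and FoxM1 factors and driven by cyclin B with Cdk1. In the forebrain of a young mouse, dividing cells include oligodendrocyte precursors, astrocytes, neural progenitors of the subventricular zone and dentate gyrus, microglia and vascular cells. Bulk RNA from tissue does not tell more dividing cells from more RNA per dividing cell.

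Promoters of the 2 gene groups were searched for known cell cycle elements. Promoter windows of 300 bases, 250 before and 50 after the start, were taken from RefSeq on build GRCm38.p6 and matched 32 of the 40 genes. Aurkb, Ccna2, Ccne2, Foxm1, Gins2, Kif20a, Mcm4 and Tpx2 had no entry. The CHR element (TTTGAA or TTCGAA), which MuvB complexes are known to bind, lay on either strand in 14 of 19 mitotic promoters (73.7%), in 2 of 13 S-phase promoters (15.4%) and in 19.4% of the 27025 promoters in the table. CHR and a CCAAT box (CCAAT), the site of the factor NF-Y, stood together in 14 of the 19 mitotic promoters, in 2 of the 13 S-phase promoters and in 7.7% of all. An E2F site (TTCGCGC or TTGGCGC) lay in 4 mitotic promoters (21.1%), in 5 S-phase promoters (38.5%) and in 3.98% of all. The E2F letters can overlap a CCAAT box and can lie on both strands at 1 place. These matches describe sequence, and binding was not measured here.

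The promoters of the 3 mitotic and the 3 S-phase genes with the smallest p between the groups are shown, to set the 2 promoter types side by side, with matches to CHR, CCAAT or E2F letters in capitals. Kif11 (chr19:37376132-37376431, plus strand) and Kif23 (chr9:61946750-61947049, minus strand) hold a CCAAT box followed by a CHR element close to the start. Ccnb1 (chr13:100786437-100786736, minus strand) holds a pair of CCAAT boxes, the first overlapping an E2F match, and no CHR letters. Mcm6 (chr1:128359656-128359955, minus strand) holds E2F letters at 3 places, at 2 of them on both strands, and CCAAT letters. Rrm2 (chr12:24708004-24708303, plus strand) holds a CCAAT box alone, and Tyms (chr5:30073576-30073875, minus strand) no match to any of these motifs.
Kif11: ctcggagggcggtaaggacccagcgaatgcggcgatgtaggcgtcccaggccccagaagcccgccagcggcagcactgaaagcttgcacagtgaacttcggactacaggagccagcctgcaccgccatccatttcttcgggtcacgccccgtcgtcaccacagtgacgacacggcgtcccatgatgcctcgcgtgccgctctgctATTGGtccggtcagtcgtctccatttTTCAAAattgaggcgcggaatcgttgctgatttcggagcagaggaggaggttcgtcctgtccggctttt
Kif23: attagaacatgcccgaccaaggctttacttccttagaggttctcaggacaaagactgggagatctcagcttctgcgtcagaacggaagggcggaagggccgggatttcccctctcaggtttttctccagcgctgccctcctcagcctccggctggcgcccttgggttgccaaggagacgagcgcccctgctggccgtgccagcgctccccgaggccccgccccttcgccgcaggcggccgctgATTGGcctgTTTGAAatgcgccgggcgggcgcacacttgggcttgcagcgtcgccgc
Ccnb1: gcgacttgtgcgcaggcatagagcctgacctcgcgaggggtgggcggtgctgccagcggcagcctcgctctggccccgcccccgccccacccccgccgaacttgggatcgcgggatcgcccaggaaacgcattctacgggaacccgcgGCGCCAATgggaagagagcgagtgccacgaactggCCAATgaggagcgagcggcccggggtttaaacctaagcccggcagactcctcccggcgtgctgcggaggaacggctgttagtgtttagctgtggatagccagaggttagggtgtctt
Rrm2: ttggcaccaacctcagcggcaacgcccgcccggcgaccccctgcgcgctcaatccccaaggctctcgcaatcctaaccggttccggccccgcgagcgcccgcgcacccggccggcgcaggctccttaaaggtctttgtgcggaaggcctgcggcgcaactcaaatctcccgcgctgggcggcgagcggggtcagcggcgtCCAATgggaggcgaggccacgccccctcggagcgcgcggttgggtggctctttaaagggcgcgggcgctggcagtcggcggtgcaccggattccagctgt
Mcm6: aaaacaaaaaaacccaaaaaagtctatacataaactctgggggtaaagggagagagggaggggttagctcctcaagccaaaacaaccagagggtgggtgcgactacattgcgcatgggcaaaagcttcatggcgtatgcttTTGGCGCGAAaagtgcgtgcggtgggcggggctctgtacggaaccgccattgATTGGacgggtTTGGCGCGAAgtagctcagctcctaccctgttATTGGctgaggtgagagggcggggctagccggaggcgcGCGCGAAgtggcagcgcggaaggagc
Tyms: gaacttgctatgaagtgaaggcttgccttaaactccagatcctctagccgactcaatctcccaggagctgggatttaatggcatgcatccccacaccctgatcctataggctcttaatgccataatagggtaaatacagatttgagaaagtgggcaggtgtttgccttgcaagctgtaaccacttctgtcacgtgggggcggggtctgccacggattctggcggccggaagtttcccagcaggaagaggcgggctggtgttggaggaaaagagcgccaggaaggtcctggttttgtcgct

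Total counts ran from 19934003 to 29310193 in cKO libraries and from 17262042 to 22118915 in control libraries. Parp1, the targeted gene (ENSMUSG00000026496), was at 80.8, 79.7 and 79.1 CPM in cKO mice 1, 2 and 3, against 90.8, 97.3 and 85.6 CPM in control mice 1, 2 and 3, in whole forebrain RNA that mixes recombined and other cells. CPM are counts scaled to library size after TMM normalisation. The fitted log2 fold change of Parp1 was -0.19 (95% interval -0.33 to -0.05, edgeR adjusted p = 0.572), and every cKO value lay below every control value. Control mouse 3 stood apart in a principal component analysis, at 31 on component 1 (40.1% of the variance), with the other libraries between -10.5 and -2.91. Its summed level of 17 striatal genes was 805 CPM, against 1681 to 2077 in the other libraries, and that of 16 thalamic genes 888 CPM, against 375 to 438. The Y-linked gene Ddx3y had 1123 counts in control mouse 1 and at most 1 in each other library, so the sexes were not balanced between the groups. Cell cycle values are given with and without control mouse 3 because of the component 1 position and regional sums of that library. Leaving it out does not balance the sexes, as the 1123 Ddx3y counts were in control mouse 1. The labels name separate mice, and every pair of libraries differed by more than sampling noise (chi-square per degree of freedom from 4.34 to 23.8).

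Mitotic genes had mostly positive log2 fold changes of cKO over control, and no single one passed the test over all genes. Of the 24 genes, 23 had a positive value, Kif20a being the exception, while 49.8% of all 16938 tested genes had one. The genes of each list here were measured in the same mice and can vary together. A count of genes is therefore not a count of independent observations. The 24 were also chosen with earlier results of these data known. The median of the 24 was 0.38, from -0.14 to 0.77, against a median of -0.00 over all tested genes. EdgeR's quasi-likelihood test called 0 of the 24 at an adjusted p under 0.05, a rule that 0.266% of all tested genes met, 0.059% of them as higher in cKO. At an unadjusted p under 0.05, 6 of the 24 were higher and 0 lower, where 3.52% of all tested genes were higher and 2.75% lower. DESeq2 called 1 of them, Kif11, and limma-voom with quality weights called 0. Over all genes DESeq2 called 108 and limma-voom 62, against 45 by edgeR. In 6 of the 24, Kif11, Kif23, Ect2, Prc1, Ccna2 and Foxm1, every cKO value lay above every control value, as it did for 6.08% of all tested genes.

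The size of the mitotic difference rested in part on control mouse 3. That library was the lowest of the 6 for 19 of the 24 genes, and cKO mouse 1 was the highest for 13. The summed level of the 24 genes was 190, 177 and 152 CPM in cKO mice 1, 2 and 3, against 137, 156 and 105 CPM in control mice 1, 2 and 3. Control mouse 2 therefore lay above cKO mouse 3, and the groups overlapped. Without control mouse 3 the median log2 fold change was 0.22, 21 of the 24 genes stayed positive where 49.9% of all tested genes were, and edgeR again called 0, where it called 0.349% of all tested genes, 0.0932% as higher. Then 3 of the 24, Kif11, Kif23 and Prc1, were higher at an unadjusted p under 0.05, where 2.89% of all tested genes were. Every cKO value lay above both remaining control values for 6 of the 24 genes and below them for 0, where 9.97% of all tested genes were higher and 11% lower without overlap.

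**Figure D1:**
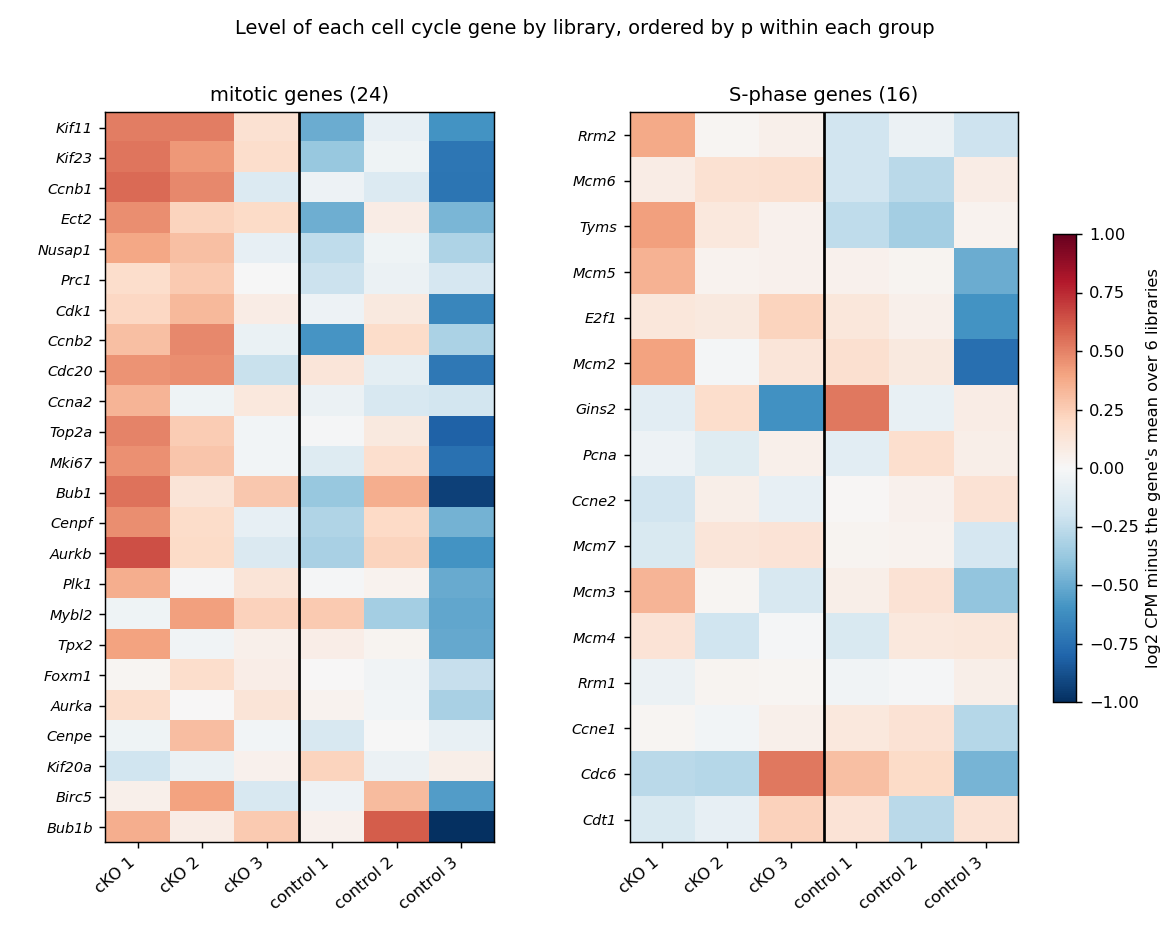
Level of each of the 40 genes by library, as log2 CPM minus the gene's mean over the 6 libraries, with cKO libraries left of the line and genes ordered by p within each group. Control mouse 3 is lowest for 19 of the 24 mitotic genes and for 8 of the 16 S-phase genes.

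Motor proteins and cytokinesis factors of the spindle are given next, among them the mitotic genes with the 2 smallest p-values, Kif11 and Kif23. Kif11 encodes Eg5, the kinesin that pushes spindle poles apart (chromosome 19, 37376403 to 37421859 in mm10). It was at 12.3, 12.3 and 9.6 CPM in cKO mice 1, 2 and 3, against 6.12, 8.14 and 5.7 CPM in control mice 1, 2 and 3. Every cKO mouse lay above every control mouse. The fold was 1.71 (log2 0.77, SE 0.16, 95% interval 0.41 to 1.13), with an edgeR adjusted p = 0.12, and 0.66 on the log2 scale without control mouse 3 (adjusted p = 0.167). An exact two-sided permutation test of Kif11, picked for its smallest p, gave p = 0.1, the smallest that 3 against 3 mice allow. Groups that do not overlap always give that value, so the test adds nothing to their separation. By DESeq2 its adjusted p was 0.0112, and in edgeR without the filter on low counts it was 0.00239. Over all alternatives the adjusted p of Kif11 ran from 0.00239 to 0.697.

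Kif23, a kinesin of the central spindle needed for cytokinesis, was at 6.31, 5.9 and 4.94 CPM in cKO mice, against 3.35, 4.23 and 2.65 CPM in control mice. Its groups did not overlap either, and its log2 fold change was 0.74 (95% interval 0.30 to 1.18, edgeR adjusted p = 0.317), or 0.57 without control mouse 3. Ect2, the exchange factor that starts the contractile ring, was at 4.59, 3.88 and 3.79 CPM in cKO mice, against 2.37, 3.5 and 2.42 CPM in control mice. The groups lay close but apart, with a log2 difference of 0.55 (edgeR adjusted p = 0.714). Prc1, which bundles the microtubules of the central spindle, was at 15.1, 16 and 13.3 CPM in cKO mice, against 11.5, 12.8 and 11.9 CPM in control mice. Its difference was smaller, at 0.29 on the log2 scale, and depended little on control mouse 3 (0.27 without it). Prc1 exons overlap those of Rccd1 on the opposite strand over 11.1% of their length, so this count may hold reads of Rccd1. Nusap1, a microtubule-binding protein of the spindle, was at 9.96, 9.41 and 7.2 CPM in cKO mice, against 6.41, 7.41 and 6.16 CPM in control mice. Control mouse 2 was above cKO mouse 3, and the log2 fold change was 0.40 (edgeR adjusted p = 0.719). Tpx2, which activates Aurora A on spindle microtubules, had a log2 fold change of 0.27.

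Kif20a, another kinesin of the central spindle, was the 1 mitotic gene with a negative value. It was at 3.06, 3.35 and 3.62 CPM in cKO mice, against 4.1, 3.36 and 3.65 CPM in control mice, with a log2 difference of -0.14 (edgeR adjusted p = 0.931). Its exons overlap those of Cdc23 on the opposite strand over 29.3% of their length. The strand setting of the counting is not given in the sources used here, so this count may hold reads of Cdc23.

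**Figure D2:**
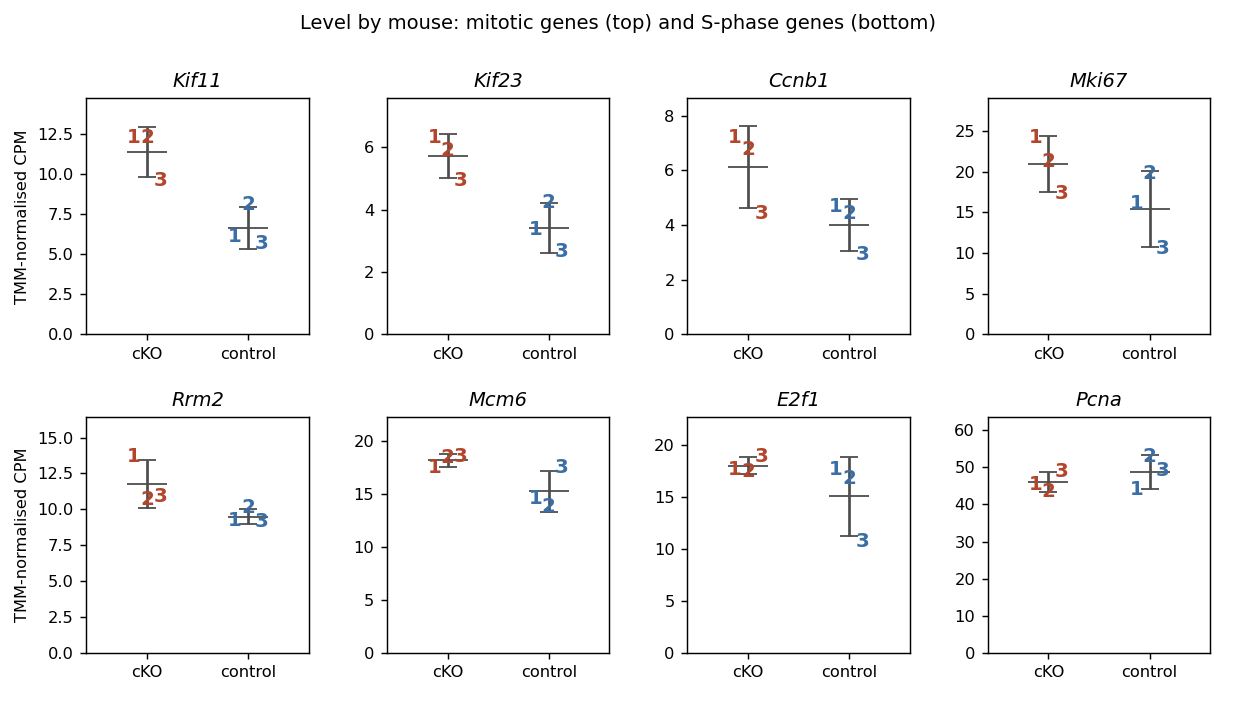
CPM of 4 mitotic genes (top row) and 4 S-phase genes (bottom row) in each mouse, drawn as the mouse number, with the group mean and SD as grey bars (n = 3 each). Kif11 and Kif23 separate the groups, Mki67 does not, and control mouse 3 stands low for E2f1.

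The cyclins and kinases that drive entry into mitosis had positive values, over groups that overlapped in each case except Ccna2. Ccnb1, cyclin B1, was at 7.2, 6.78 and 4.42 CPM in cKO mice, against 4.68, 4.42 and 2.92 CPM in control mice. The cKO mouse with the lowest value sat among the controls, and the log2 fold change was 0.61 (95% interval 0.11 to 1.12, edgeR adjusted p = 0.7), or 0.42 without control mouse 3. Cdk1, the kinase cyclin B activates, was at 5.72, 6.22 and 5.22 CPM in cKO mice, against 4.79, 5.29 and 3.15 CPM in control mice. Control mouse 2 lay just above cKO mouse 3, and the log2 fold change was 0.38, or 0.17 without control mouse 3. Ccnb2, cyclin B2, had a log2 fold change of 0.45 and Ccna2, cyclin A2, which acts from S phase into mitosis, one of 0.27 (edgeR adjusted p = 0.835 for each). Plk1, Aurka and Aurkb, the Polo and Aurora kinases of spindle assembly and chromosome attachment, were at 0.31, 0.21 and 0.44 on the log2 scale. Cdc20, which activates the ubiquitin ligase that ends metaphase, was at 0.45.

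Mki67 and Top2a, genes widely used to mark dividing cells, had values that depended strongly on control mouse 3. Mki67, whose protein Ki-67 coats mitotic chromosomes, was at 24.2, 21.3 and 17.3 CPM in cKO mice, against 16.1, 19.8 and 10.5 CPM in control mice. Top2a, the topoisomerase that untangles replicated DNA, was at 18.1, 15.3 and 12.6 CPM in cKO mice, against 12.7, 13.7 and 7.3 CPM in control mice. For both, control mouse 3 was lowest by far, and control mouse 2 lay within the cKO range, as control mouse 1 did for Top2a. Their log2 fold changes were 0.43 and 0.44 with all libraries and 0.20 each without control mouse 3 (edgeR adjusted p = 0.837 and 0.836 with all libraries).

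Genes of the kinetochore and the spindle checkpoint had positive values over groups that overlapped. Bub1 and Bub1b, checkpoint kinases at the kinetochore, had log2 fold changes of 0.53 and 0.26. Bub1b had the widest interval of the mitotic genes (-0.88 to 1.4 on the log2 scale), at 9.27, 7.59 and 8.63 CPM in cKO mice against 7.45, 11 and 2.83 CPM in control mice, so that control mice 2 and 3 were the highest and the lowest of all. Without control mouse 3 its log2 fold change was -0.14. Cenpe, a kinetochore motor, and Cenpf, a kinetochore protein, were at 0.16 and 0.36 on the log2 scale, and Birc5, survivin, a subunit of the complex that corrects attachments, at 0.17 (-0.05 without control mouse 3). Counts of these genes are small, with Bub1 at 24 to 73 reads per library and Birc5 at 66 to 145, which limits the precision for each.

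The transcription factors of the mitotic programme had intervals that spanned 0. Foxm1, which activates G2/M genes, was at 6.96, 7.75 and 7.17 CPM in cKO mice, against 6.87, 6.67 and 5.84 CPM in control mice. The lowest cKO mouse lay just above the highest control mouse, and the log2 fold change was 0.18 (95% interval -0.13 to 0.49, edgeR adjusted p = 0.88). Mybl2, B-Myb, which works with MuvB on the same genes, had a log2 fold change of 0.38 over groups that overlapped.

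**Figure D3:**
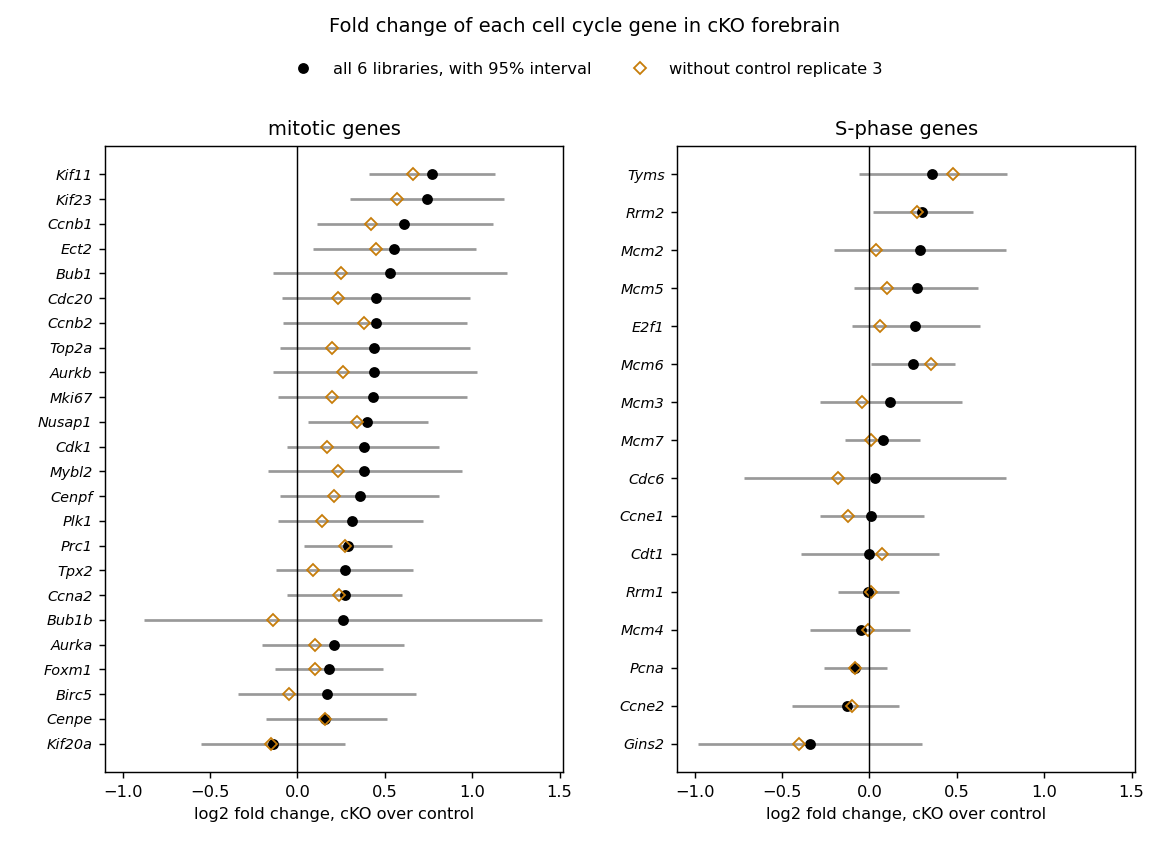
Log2 fold change of cKO over control for each gene with its 95% interval (black) and the value without control mouse 3 (open diamonds). Among mitotic genes 23 of 24 points lie above 0, and among S-phase genes 11 of 16.

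S-phase genes had a median log2 fold change of 0.06, with a range of -0.34 to 0.36, against a median of -0.00 over all tested genes. Of the 16, 11 (68.8%) had a positive value and 5 a negative one, where 49.8% of all tested genes were positive. EdgeR called 0 of 16 at an adjusted p under 0.05, as did DESeq2 and limma-voom with quality weights. Over all genes the 3 called 45, 108 and 62. At an unadjusted p under 0.05, 2 were higher by edgeR (Rrm2 and Mcm6), where 3.52% of all tested genes were. DESeq2 had 0 and limma-voom 2 at that p, and the shares of all genes in those fits are not given here. In 2 genes, Rrm2 and Tyms, the cKO mice all lay above the controls, as they did for 6.08% of all tested genes. The summed level of the 16 genes was 215, 209 and 219 CPM in cKO mice 1, 2 and 3, against 205, 213 and 195 CPM in control mice 1, 2 and 3. Without control mouse 3, which was the lowest for 8 of the 16, the median was 0.01, 9 of 16 were positive and 2 (Mcm6 and Tyms) were higher at an unadjusted p under 0.05, where 2.89% of all tested genes were. Groups then did not overlap for 3 higher genes, Rrm2, Mcm6 and Tyms, and for 1 lower gene, Ccne1, where 9.97% of all tested genes were higher and 11% lower without overlap. The difference between the medians of the mitotic and the S-phase genes was not tested.

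The enzymes that supply nucleotides had unequal values. Rrm2, the regulated subunit of ribonucleotide reductase, was at 13.7, 10.7 and 10.9 CPM in cKO mice, against 9.24, 10.1 and 9.13 CPM in control mice. The log2 fold change was 0.30 (95% interval 0.02 to 0.59, edgeR adjusted p = 0.768), with cKO mouse 1 above the other cKO mice. Rrm1, the large subunit, was at 25.2, 26.7 and 26.6 CPM in cKO mice, against 25.6, 26 and 27.3 CPM in control mice. That is a log2 fold change of -0.01 with a 95% interval of -0.18 to 0.17, the narrowest interval among the 40 genes. Tyms, thymidylate synthase, was at 5.03, 4.08 and 3.9 CPM in cKO mice, against 3.18, 2.99 and 3.88 CPM in control mice. Control mouse 3 nearly reached the lowest cKO mouse, and the log2 fold change was 0.36, or 0.48 without that control.

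The 6 subunits of the MCM helicase, which form 1 ring around DNA, had unequal values. Mcm6 was at 17.5, 18.5 and 18.6 CPM in cKO mice, against 14.6, 13.8 and 17.5 CPM in control mice. Its log2 fold change was 0.25 (95% interval 0.01 to 0.49, edgeR adjusted p = 0.774) and 0.35 without control mouse 3, the library closest to the cKO mice for this gene. Mcm2 was at 10.2, 7.59 and 8.38 CPM in cKO mice, against 8.6, 8.24 and 4.56 CPM in control mice. Its log2 fold change was 0.29, or 0.04 without control mouse 3, which stood far below the rest. Mcm5 was at 11.6, 9.33 and 9.39 CPM in cKO mice, against 9.41, 9.29 and 6.48 CPM in control mice, with a log2 fold change of 0.27, or 0.10 without control mouse 3. Mcm3, Mcm4 and Mcm7 had log2 fold changes of 0.12, -0.05 and 0.08.

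Genes that license origins and trigger S phase had intervals that spanned 0. E2f1, the transcription factor of S-phase genes, was at 17.6, 17.4 and 18.9 CPM in cKO mice, against 17.6, 16.8 and 10.7 CPM in control mice. Control mouse 3 alone was low, and the log2 fold change of 0.26 became 0.06 without it. Ccne2, cyclin E2, was at 6.22, 7.39 and 6.71 CPM in cKO mice, against 7.16, 7.32 and 7.85 CPM in control mice, or -0.13 on the log2 scale (edgeR adjusted p = 0.904). Ccne1, cyclin E1, had 0.01 (95% interval -0.28 to 0.31). Cdt1 and Cdc6, which load the helicase, had 0.00 and 0.03, and Cdc6 had only 18 to 47 reads per library. Gins2, a subunit of the active helicase, had the lowest value of the 40, at -0.34 (95% interval -0.98 to 0.30), from 31 to 46 reads per library. Its exons overlap those of Gse1 on the opposite strand over 67.3% of their length, so this count may hold reads of Gse1. Pcna, the sliding clamp of DNA polymerase, was at 45.5, 43.5 and 48.9 CPM in cKO mice, against 43.9, 53 and 49.1 CPM in control mice. The groups overlapped, with a log2 fold change of -0.08 (95% interval -0.26 to 0.10).

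Levels between genes were compared on FPKM, the deposited values per gene length and library total. Pcna was the most abundant of the 40, at 30.2 ± 1.58 FPKM in cKO and 32.1 ± 3.09 FPKM in control mice (SD, n = 3 each). Mcm7 came next, at 9.83 ± 0.899 FPKM in cKO and 9.37 ± 0.81 FPKM in control mice, and its range over the 6 libraries met neither Pcna's nor Rrm1's. From Rrm1 down, every gene's range overlapped that of the next. Mcm7 exceeded each other MCM subunit in every library and held 40.2% ± 4.6 of the summed MCM level in cKO and 41.8% ± 0.335 in control mice. Below it came Mcm6, Mcm4, Mcm5, Mcm2 and Mcm3, with overlapping neighbours, and Mcm3 held 8.05% ± 1.42 in cKO and 8.06% ± 0.987 in control mice. Exons of Mcm7 overlap Ap4m1 and Cops6 on the opposite strand over 7.3% and 1.4% of their length. Prc1 was the most abundant mitotic gene, at 4.05 ± 0.422 FPKM in cKO and 3.31 ± 0.196 FPKM in control mice. Cdc6 was the least abundant of all, at 0.242 ± 0.0801 FPKM in cKO and 0.243 ± 0.0645 FPKM in control mice.

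**Figure D4:**
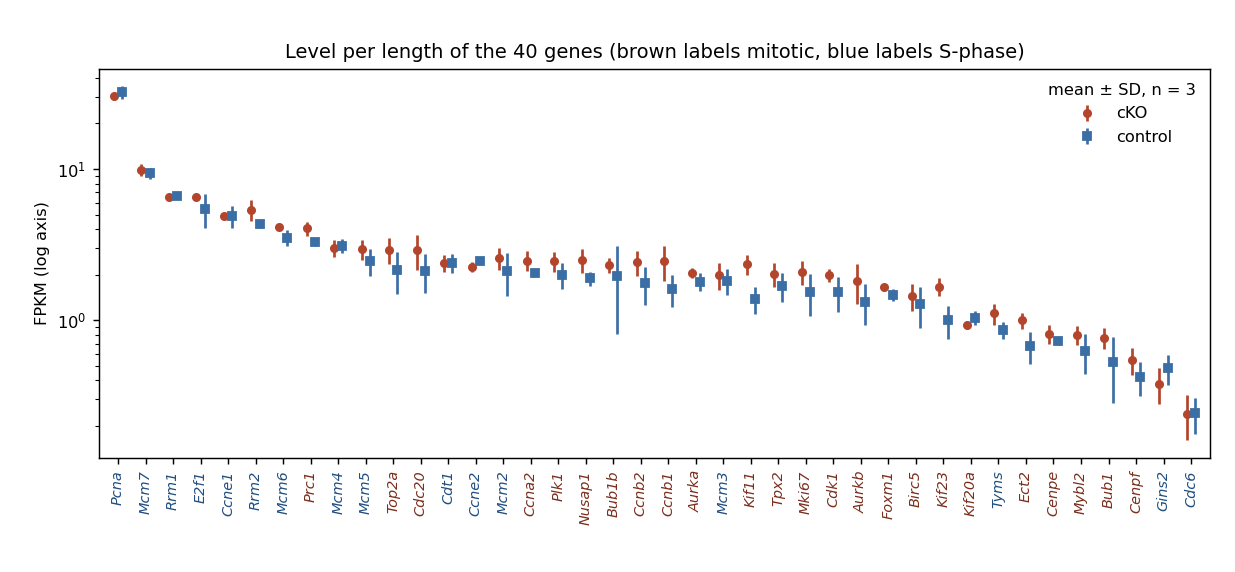
FPKM of the 40 genes on a log axis, as mean ± SD of 3 mice, ordered by level, cKO left of control within each gene. Pcna and Mcm7 stand above the rest, and the other 38 genes form a continuous series.

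Further genes of both phases, listed by textbook role and not among the 40, were described in the same way. These lists too were chosen with earlier results of these data known, so they are no independent check of the 40. Of 62 other mitotic genes, 56 had a positive log2 fold change, with a median of 0.32 and 0.17 without control mouse 3. At an unadjusted p under 0.05, 20 were higher and 0 lower, where 3.52% of all tested genes were higher, and 7 were higher without control mouse 3, where 2.89% of all were. EdgeR called 0, limma-voom 0 and DESeq2 1, Ube2c, where they called 45, 62 and 108 genes in all. Ube2c, the ubiquitin-conjugating enzyme that works with Cdc20, was at 5.28, 4.81 and 4.31 CPM in cKO mice, against 2.43, 2.94 and 2.1 CPM in control mice. The groups were well apart, with a log2 difference of 0.94 (edgeR adjusted p = 0.12) and 0.82 without control mouse 3. Knl1, a scaffold of the kinetochore, was at 3.7, 3.51 and 3.23 CPM in cKO mice, against 1.96, 2.25 and 1.51 CPM in control mice (log2 fold change 0.87, edgeR adjusted p = 0.276).

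Of 59 tested other replication genes, 40 were positive, with a median log2 fold change of 0.06, and 1 was higher and 0 lower at an unadjusted p under 0.05, where 3.52% of all were higher. No caller among edgeR, DESeq2 and limma-voom called any (0), where they called 45, 108 and 62 genes in all. Pold3 and Pold1, subunits of the lagging-strand polymerase, had the smallest p, with log2 fold changes of 0.21 and 0.30 (edgeR adjusted p = 0.718 and 0.798). Of 19 tested G1 cyclins, kinases and inhibitors, 10 were positive, with a median of 0.02. Ccnd1, cyclin D1, the regulator that links growth signals to the cycle, was at 34.6, 33.5 and 24.2 CPM in cKO mice, against 22.4, 23 and 23.2 CPM in control mice. Its groups did not overlap, and the log2 fold change was 0.43 with and without control mouse 3 (edgeR adjusted p = 0.392 with it). Cdkn2b, an inhibitor of cyclin D kinases, was at -0.67 from 0.941 CPM in cKO and 1.51 CPM in control mice (edgeR adjusted p = 0.812). Of 21 E2F, Rb and DREAM factors, 8 were positive, with a median of -0.05 and a range of -0.22 to 0.24. Rbbp4 and Rb1 had the smallest p there, at -0.13 and -0.11.

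Levels of several cell types moved with the groups or with control mouse 3, and their part in the cell cycle values was not tested. All 18 microglial genes had a positive log2 fold change, with a median of 0.45 (0.29 without control mouse 3), and 10 were higher at an unadjusted p under 0.05, where 3.52% of all tested genes were. Their summed level was 663 to 792 CPM in cKO and 426 to 637 CPM in control mice, lowest in control mouse 3. EdgeR called 0 of them, where 0.059% of all tested genes were called higher. DESeq2 called 5 of them, where it called 108 genes in all. Without control mouse 3 edgeR called 1, where 0.0932% of all were called higher. Fcrls and Csf1r, a scavenger receptor and the receptor microglia need to survive, had log2 fold changes of 0.61 and 0.46. All 14 tested oligodendrocyte precursor genes had a negative log2 fold change, with a median of -0.66, and edgeR called 6 of them lower (0.207% of all tested genes were called lower), Sox10 and C1ql1 with the smallest p (-1.41 and -1.72). Their summed level was 1123 to 1265 CPM in cKO and 1618 to 1652 CPM in control mice. This list holds the study's own target lineage, and some of its members are also expressed in later oligodendrocytes.

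Progenitor lists held more negative than positive values. Of 20 neuroblast and transit-amplifying genes, 6 were positive, with a median of -0.04, or -0.12 without control mouse 3. That library was the lowest for 13 of the 20. Without it 2 were positive, and 7 were lower and 0 higher at an unadjusted p under 0.05, where 2.89% of all tested genes were lower. Then 9 were lower without overlap, where 11% of all tested genes were. The summed level of the list was 3118 to 3211 CPM in cKO and 3361 to 3487 CPM in control mice, and Sox4 and Nrep had the smallest p (-0.26 and -0.23). Of 15 radial glia and neural stem cell genes, 5 were positive, with a median of -0.15 and a summed level of 1256 to 1431 CPM in cKO and 1452 to 1500 CPM in control mice. Tnc and Vim had the smallest p in that list, at -0.42 and 0.25. Nes, the intermediate filament of progenitors and young vessels, chosen here after its values were seen, was at 40.9, 34.9 and 28.2 CPM in cKO mice, against 25.4, 26.6 and 18.8 CPM in control mice. Its groups did not overlap (log2 fold change 0.55, edgeR adjusted p = 0.552), and it was among the 108 genes that DESeq2 called.

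The 14 endothelial genes were all positive with a median of 0.10, and 12 were positive without control mouse 3. They summed to 361 to 465 CPM in cKO and 373 to 393 CPM in control mice. For 11 of them cKO mouse 2 was the highest library, while cKO mouse 3 had the lowest sum of all. Eng and Emcn had the smallest p there (0.32 and 0.33). The 15 astrocyte genes had a median of -0.02, with sums of 5142 to 5516 CPM in cKO and 5061 to 5370 CPM in control mice, and S100b and Slc4a4 had the smallest p (-0.46 and -0.12). Cerebellar granule precursors divide at this age. Atoh1 and Gabra6, genes of the granule cell lineage in that list, were at 0 to 0.046 CPM in all 6 libraries. The 11 tested genes of that list, several of them also used by the forebrain, had a median of -0.00, Gli1 and Barhl1 having the smallest p (0.33 and -0.88). The 6 tested erythroid genes varied between mice of both groups, with sums of 142 to 291 CPM in cKO and 171 to 327 CPM in control mice, and Hba-a2 and Hba-a1 had the smallest p (-1.24 and -0.88). Striatal genes had a median of 0.21 and thalamic genes one of -0.52, which became -0.08 and 0.03 without control mouse 3. Isl1 and Foxp1 (0.32 and 0.25) and Prkcd and Rgs16 (0.25 and -0.46) had the smallest p of those lists.

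**Figure D5:**
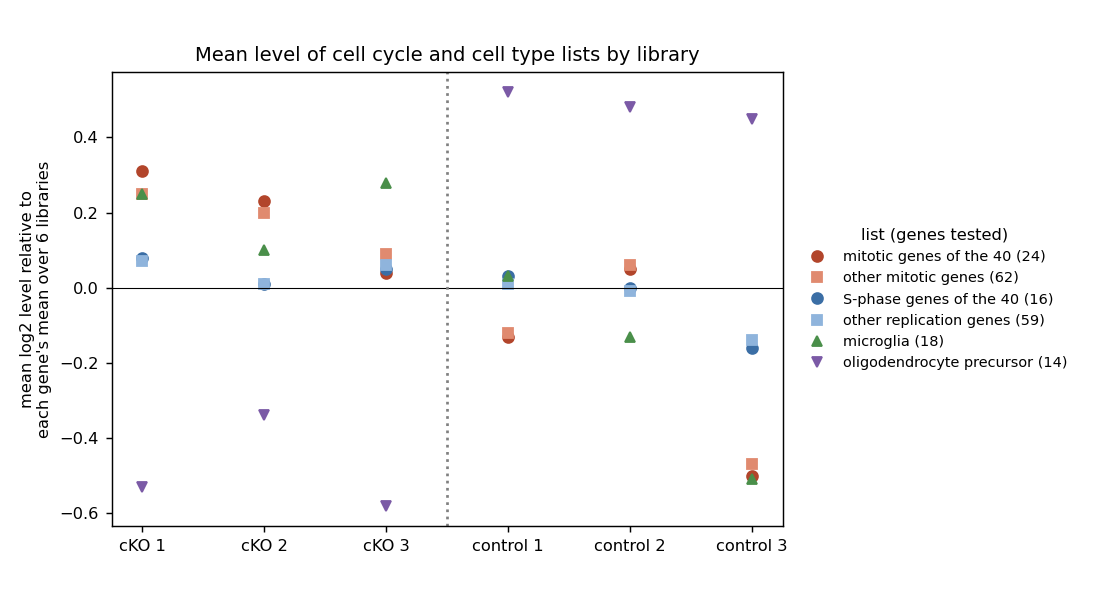
Mean log2 level of each list relative to its genes' means over the 6 libraries, by library. Mitotic genes of both lists and microglial genes are lowest in control mouse 3, at -0.50, -0.47 and -0.51, while oligodendrocyte precursor genes separate the groups, at -0.58 to -0.34 in cKO and 0.45 to 0.52 in control mice.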

How the data were processed

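RNA of 6 forebrains was enriched on poly-T beads and made into strand-marking libraries, per the labels. The counts the authors deposited are whole numbers per Ensembl gene. The submitters' processing notes list CASAVA, STAR 2.5, HTSeq 0.6.1, DESeq and mm10, with no role for any of them. Neither strand setting nor annotation release is given in the sources used here, and the exons of 9 of the 40 genes share bases with an oppositely oriented gene. Besides the overlaps given above, Ccne2 shares 17.4% of its exon length with Ints8 and Ccna2 12.5% with Exosc9. The deposited FPKM equal the counts divided by a fixed gene length and the table total: the implied length was whole within 0.01 bp for 100% of values.

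Genes were named by GENCODE M21, on the same build, for 34490 of 35275 identifiers. The 785 unnamed ones held 0.119% to 0.13% of counts. Counts were tested with edgeR 4.0.16 in R 4.3.3: filterByExpr (minimum count 10, minimum total 15), TMM scaling, the robust quasi-likelihood test of cKO against control over 16938 genes, two-sided, with Benjamini-Hochberg adjustment over all of them and a threshold of 0.05. The fit was tested on simulated data. SE is the absolute log2 fold change over the root of F. Mean log2 levels used 0.1 CPM as offset. Alternatives used DESeq2 1.42.0 and limma 3.58.1 (voom with quality weights, and log2(FPKM + 1) or log2(FPKM + 0.1)), other scalings and filters, each library left out, and a replicate block.

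The 40 genes and all lists were chosen with earlier results of these data known, so p-values were not adjusted over a list and no set was tested. Values by mouse are given for the 6 mitotic and 5 S-phase genes with the smallest p, and in any case for Mki67, Top2a, Cdk1, Ccnb1, Foxm1, Pcna, Mcm2, Tyms, E2f1 and Ccne2. In other lists the 2 genes with the smallest p are named. Kif20a, Bub1b, Rrm1 and Nes were given by mouse after their values were seen. Lhfpl3 and Ahsp of the marker lists were not used here.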

Additional observations from a re-analysis of the deposited data

How the results depend on the processing

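No member was called by edgeR under any scaling, under a mean of at least 1 CPM, with the replicate block or with a library left out, nor by limma. The 1 mitotic call under DESeq2 and the 1 without the filter on low counts were both Kif11 (log2 fold change 0.77, adjusted p = 0.0112, and 0.78, adjusted p = 0.00239). Over all tested genes, 45 were called, against 108 by DESeq2, 111 without a filter, 24 on log2(FPKM + 1) and 24 on log2(FPKM + 0.1) with a mean of at least 0.5, 21 on log2(FPKM + 1) without a filter, and 28 to 60 with a library left out. The cause of these differences was not tested. The mitotic median ran from 0.22 to 0.52 with a library left out, and the S-phase median from 0.01 to 0.14. Mitotic genes higher without overlap numbered 6 to 16, and S-phase genes 2 to 4 (4 without a filter). Groups separate more easily with a library left out: 6.08% of all tested genes were higher without overlap with all libraries and 9.97% without control mouse 3. Shares for the other fits are not given here, so these counts cannot be read as a result about the members. Mitotic genes higher at an unadjusted p under 0.05 numbered 2 without cKO mouse 1, 3 without cKO mouse 2, 3 without control mouse 3 and 13 without control mouse 2, against 6 with all libraries. Other mitotic genes numbered 7 to 27, against 20. Of all tested genes, 3.52% were higher at that p with all libraries and 2.89% without control mouse 3. Shares at that p in the other fits are not given here. The p counts of both mitotic lists were added after the data were seen.

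Signs changed for 8 of the 40 genes. Cdt1 went to -0.00 by DESeq2 and by library size, to -0.01 in each FPKM fit, and to -0.13 to 0.08 with a library left out. By limma-voom Rrm1 went to 0.02, Ccne1 to -0.07 and Cdc6 to -0.24, and Cdc6 to -0.00 on log2(FPKM + 1) without a filter. With a library left out the ranges were -0.04 to 0.23 for Mcm3, -0.03 to 0.02 for Rrm1, -0.13 to 0.03 for Mcm4, -0.12 to 0.09 for Ccne1, -0.31 to 0.17 for Cdc6, -0.05 to 0.41 for Birc5 and -0.14 to 0.75 for Bub1b. Of 674 values of single genes under 17 alternatives, 649 kept their sign and side of the threshold.

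The replicate numbers of the labels gave no sign of pairing the mice. Same-numbered mice correlated at -0.019, -0.063 and -0.015 in their deviations from the group means, and differently numbered mice at -0.077 to 0.118. With 3 mice per group these correlations cannot show whether mice were paired. With the number as a block, edgeR called 32 genes in all and 0 of the 40, with a mitotic median of 0.40 and an S-phase median of 0.05. In that fit 9 mitotic genes were higher at an unadjusted p under 0.05, and the share of all tested genes is not given for it. The 3 mice per group and counts as low as 18 reads for Cdc6 limit what could be detected.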
